A study of Mus musculus with 44 samples.

Results

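The 30 nuclear genes described here encode subunits of complexes II, III and V of the mitochondrial respiratory chain, together with cytochrome c and the ATPase inhibitor. They were chosen by name, all 30 were found among the 38202 genes of the deposited tables, and 4 belong to complex II, 9 to complex III and 15 to complex V, beside Cycs and Atpif1. RNA came from liver and skeletal muscle of 11 wild-type (WT) and 11 Slc16a13 knockout (KO) mice, so that each mouse gave both tissues and 44 libraries were compared. All mice were male C57BL/6N, were fed a high-fat diet (HFD) for 15 weeks and were killed at 20 weeks of age after an overnight fast, so that no library comes from a mouse on chow. The KO is constitutive, made with CRISPR/Cas9 by deleting the proximal promoter and the first exons of Slc16a13, a gene for a monocarboxylate transporter, and it is therefore present in every cell type. WT mice were littermates. The study asked what loss of the transporter does to liver metabolism and mitochondria, and its blots of respiratory complexes included the products of Sdhb, Uqcrc2 and Atp5a1, which are members here.

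Complex II, succinate dehydrogenase, oxidises succinate in the TCA cycle and passes the electrons to ubiquinone. Complex III, the cytochrome bc1 complex, moves them from ubiquinol to cytochrome c and pumps protons. Complex V, the ATP synthase, lets protons flow back through a membrane rotor and makes ATP in its catalytic head. Complex II is encoded entirely in the nucleus, whereas complexes III and V also hold subunits encoded by mitochondrial DNA. The abundance of these complexes is known to differ between tissues, and skeletal muscle and liver are both rich in mitochondria.

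Libraries held between 20150712 and 35218243 counted reads. The counts of Slc16a13 ran from 99 to 302 in WT livers and from 0 to 8 in KO livers. In muscle they ran from 4 to 22 in WT libraries and from 11 to 40 in libraries labelled KO. The count covers the whole gene while the deletion takes the promoter and first exons, so it may not check the label in muscle. Yet the same count was lower in KO livers, at a log2 ratio to WT of -5.45 (edgeR adjusted p = 2.808e-11). In muscle that ratio was 0.636 (edgeR adjusted p = 0.4946). In mice labelled KO the log2 ratio of liver to muscle was -2.25 (edgeR adjusted p = 1.694e-06). The count thus does not bear out the label in muscle, and the reason was not tested. These are called muscle libraries labelled KO throughout. With all 44 libraries scaled together, hepatocyte markers summed to 84860 to 130300 CPM in livers and to 0.353 to 9.14 CPM in muscles, and muscle fibre markers to 113400 to 184400 CPM in muscles and 0.612 to 56.9 CPM in livers. In 4 of the 11 KO livers (mice 532, 583, 602 and 611) short genes had more and long genes fewer reads than in the other livers. Over genes other than the 30 members, log2 CPM changed with log2 gene length at a slope of -0.53, -0.25, -0.42 and -0.079 in these livers, against 0.040 to 0.096 in WT livers and 0.037 to 0.108 in the other 7 KO livers. These 4 livers stand apart, and liver results that rest on them are given with and without them.

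Sequences are shown first for the members whose counts depend on them. Subunit c, which forms the rotor ring of ATP synthase, comes from 3 genes, Atp5g1, Atp5g2 and Atp5g3, whose proteins differ in the import sequence that is cut off and share the mature part. The last 237 coding bases of each are printed because reads must be told apart by them, with the bases that differ between the 3 genes in capitals (GENCODE M21 transcripts, 5′ to 3′).
Atp5g1: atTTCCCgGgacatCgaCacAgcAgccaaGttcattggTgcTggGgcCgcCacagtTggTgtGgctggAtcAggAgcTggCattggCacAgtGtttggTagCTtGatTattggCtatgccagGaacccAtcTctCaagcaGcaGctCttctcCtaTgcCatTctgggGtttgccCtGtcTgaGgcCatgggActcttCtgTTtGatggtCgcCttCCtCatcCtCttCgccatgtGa
Atp5g2: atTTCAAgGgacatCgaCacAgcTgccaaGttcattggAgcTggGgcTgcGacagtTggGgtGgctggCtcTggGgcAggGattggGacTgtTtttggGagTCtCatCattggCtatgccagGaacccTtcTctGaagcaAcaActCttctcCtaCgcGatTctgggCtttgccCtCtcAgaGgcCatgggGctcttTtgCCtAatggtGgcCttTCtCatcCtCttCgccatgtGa
Atp5g3: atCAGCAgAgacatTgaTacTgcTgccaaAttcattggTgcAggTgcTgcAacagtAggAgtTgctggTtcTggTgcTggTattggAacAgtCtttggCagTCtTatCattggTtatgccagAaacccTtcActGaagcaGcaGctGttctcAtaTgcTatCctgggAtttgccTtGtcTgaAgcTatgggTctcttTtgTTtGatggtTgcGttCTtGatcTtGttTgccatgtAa
The 3 stretches differed at 64 of the 237 positions, yet all 78 codons before the stop gave the same amino acid in all 3 genes. The longest identical run between any pair was 21 bases, below the read length of 85 bases, so that a read from this stretch could be placed on its own c-ring gene.

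Atp5l, which encodes subunit g of the ATP synthase membrane part, is the only member that did not pass the filter on low counts. Its counts ran from 0 to 5 in WT livers, 0 to 15 in KO livers, 6 to 17 in WT muscles and 2 to 11 in muscles labelled KO. The first 150 bases of its coding sequence are printed because each of the 312 coding bases lay in an 85-base stretch that another annotated gene also holds, which the capitals mark.
Atp5l: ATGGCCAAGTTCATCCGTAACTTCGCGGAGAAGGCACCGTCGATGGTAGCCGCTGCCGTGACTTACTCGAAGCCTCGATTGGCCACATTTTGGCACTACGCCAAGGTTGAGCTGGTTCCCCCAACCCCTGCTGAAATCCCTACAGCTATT
Over its transcripts, 62.6% of the 85-base windows of Atp5l were shared, most often with the processed pseudogene Gm10221, which itself had 0 to 8 reads per library. No direction is given for Atp5l.

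Shared windows also touched other members, so their levels are uncertain by the reads that could be split or dropped. The share was 35.3% for Atp5g2, 25.6% for Cycs, 25% for Atp5h, 23.1% for Uqcrb, 17.7% for Atp5o, 11.5% for Atp5f1 and 6.56% for Atp5g1. It was under 1% for Uqcrh, Uqcr11 and Atp5j and 0 for the other 19 members. These shares pool the windows of all protein-coding transcripts of a gene, so they can understate the share over the length used for RPKM. For Cycs 777 of 3039 windows were shared, beside a length of 896 bases. For Atp5g2 it was 561 of 1587 windows beside 441 bases, and for Atp5g1 318 of 4846 windows beside 614 bases. The most frequent partners of Atp5g2, Cycs, Atp5h, Uqcrb, Atp5f1 and Atp5g1 were separate gene models with at most 33 reads in any library. For Atp5o the partner was a further gene model of the same name. Windows of Uqcrc2, Atp5f1, Atp5o, Atpif1, Atp5l, Atp5a1, Atp5j and Atp5g1 also matched the opposite strand of another transcript, and whether strand was used in counting was not given in the sources used here.

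Promoters are shown for Sdhb, one of the members whose product was blotted, and for Cycs, the member with the largest difference between tissues. NRF1 and ETS-family factors are textbook regulators of genes for the respiratory chain. The 250 bases before the start site (RefSeq, GRCm38.p6) are printed with the match to the NRF1 letters GCGCATG, searched on both strands, in capitals.
Sdhb, chr4:140961021-140961270, plus strand: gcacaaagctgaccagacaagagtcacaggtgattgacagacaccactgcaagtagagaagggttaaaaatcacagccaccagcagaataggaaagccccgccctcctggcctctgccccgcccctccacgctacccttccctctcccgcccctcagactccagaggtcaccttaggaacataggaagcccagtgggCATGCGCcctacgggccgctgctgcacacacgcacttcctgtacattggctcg
Cycs, chr6:50566570-50566819, minus strand: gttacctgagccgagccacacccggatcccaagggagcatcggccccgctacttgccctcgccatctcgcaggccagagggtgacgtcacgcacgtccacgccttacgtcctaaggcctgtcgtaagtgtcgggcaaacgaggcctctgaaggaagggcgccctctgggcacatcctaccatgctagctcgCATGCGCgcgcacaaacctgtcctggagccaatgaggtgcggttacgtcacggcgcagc
Promoter windows, taken from 250 bases before to 50 bases after the start, were listed for 23 of the 30 members. GCGCATG was present for 7 of the 23, or 30.4%, against 4.41% of 27025 genes. The ETS letters CCGGAAG were present for 9 of the 23, or 39.1%, against 9.93% of the 27025 genes, and the YY1 letters ATGGCGG for 3, or 13%, against 4.69%. The letters CCGGAAG and GCGCATG occurred together for Sdhb, Atp5k, Atp5l and Uqcr11. These matches describe the letters in the windows and do not show binding.

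The level per length of each member was taken as RPKM on TMM-scaled library sizes, to set genes and tissues side by side. This scale corrects neither for reads that could be split or dropped at shared windows nor for a library's trend on gene length. In WT livers Atp5b and Atp5a1, the catalytic beta and alpha subunits of the ATP synthase head, stood highest at 1060 ± 39.9 and 578 ± 25.7 RPKM (mean ± SD, n = 11). Atp5g3, the leading c-ring gene of liver, followed at 446 ± 15.3 RPKM. In WT muscles the first places went to Atp5b at 1852 ± 155, Atp5a1 at 950 ± 80.0 and Atp5o, the subunit that joins the head to the peripheral stalk, at 495 ± 33.2 RPKM. The lowest of the tested members in both tissues was Atpif1, which blocks reverse running of the ATP synthase, at 17.5 ± 2.89 RPKM in liver and 18.8 ± 1.72 RPKM in muscle. Cycs, the mobile electron carrier, stood next to it in liver at 27.4 ± 2.59 RPKM. The level and rank of Cycs are uncertain, since 25.6% of its windows were shared and reads from them could be split or dropped.

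**Figure D1:**
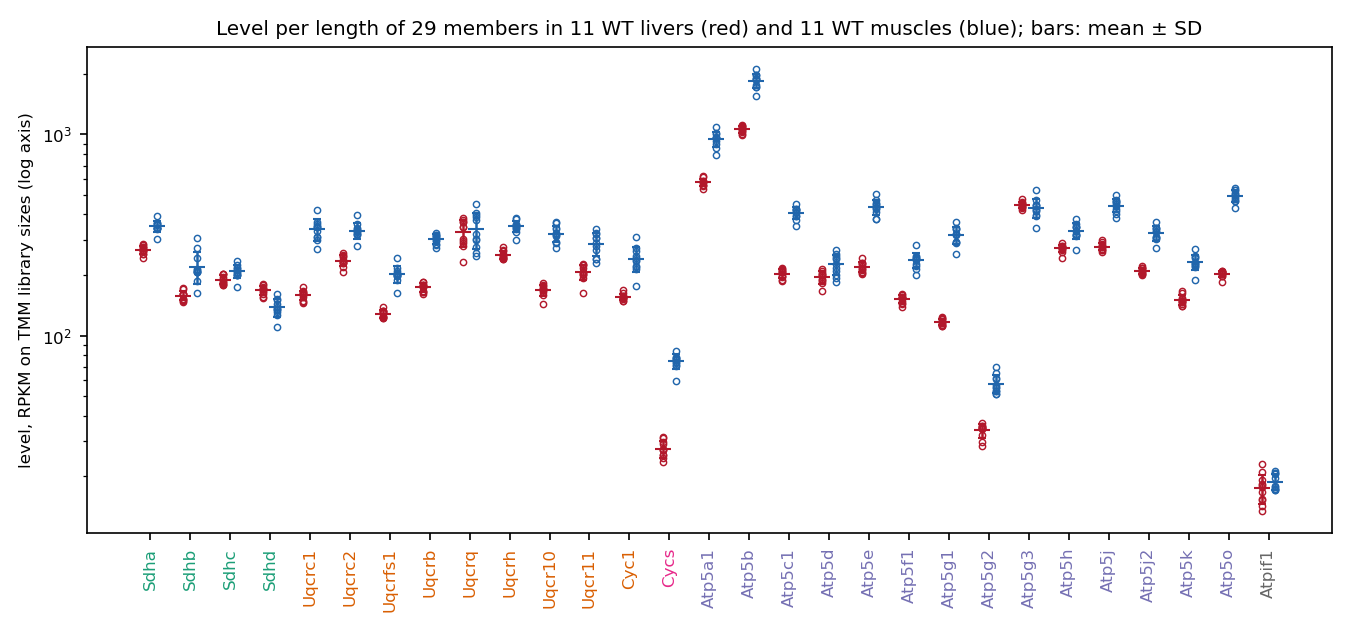
Level of 29 members in RPKM on TMM library sizes (log axis) in 11 WT livers (red) and 11 WT muscles (blue), with each library as a circle and mean ± SD as bars, and the names coloured by complex (green II, orange III, purple V, pink cytochrome c, grey ATPase inhibitor). Blue circles lie above red ones for most members, Atp5b and Atp5a1 are highest and Atpif1 is lowest.

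Levels were more even within complexes II and III than within complex V. Among the 4 complex II genes in WT livers the range was from Sdhb, the iron-sulfur subunit, at 158 ± 8.46 to Sdha, the flavoprotein, at 267 ± 13.2 RPKM, a ratio of 1.69. Among the 9 complex III genes it was from Uqcrfs1, the Rieske iron-sulfur protein, at 128 ± 5.48 to Uqcrq, a small subunit, at 326 ± 49.2 RPKM, a ratio of 2.54. Among the 14 complex V genes that were tested it was from Atp5g2 at 33.8 ± 2.70 to Atp5b, a ratio of 31.4. The ratios in WT muscles were 2.53, 1.73 and 32.1 in the same order. In both tissues the complex V ratio rests on Atp5g2, 1 of the 3 genes for subunit c. Its level is uncertain, since 35.3% of its windows were shared. The next lowest complex V gene in WT livers was Atp5g1 at 117 ± 4.39 RPKM.

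The median member varied less between WT mice than the median gene tested. Their coefficient of variation in liver, on CPM, had a median of 4.51% and ran from 2.55% to 16.2%, with Atpif1 highest, against a median of 12.2% over all 13005 genes tested. In muscle the median was 8.65% with a range from 5.31% to 20.2% and Uqcrq highest, against 11.3% over all 13266 genes tested. Counting noise weighs more on genes with few reads, and the members were not set against genes of like counts. In WT livers Atpif1 had a median of 219 reads and Atp5b of 30130.

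The question of how the tissues differ was taken up in WT mice. Most members were higher in muscle, with Cycs and Atp5g1 differing by the largest factors, and Sdhd, the small membrane anchor of complex II, was the only member that was higher in liver past the threshold, a call that turned to muscle when the trend on gene length was removed. Of the 29 members tested, 25 were higher in muscle and 1 in liver at an adjusted p under 0.05 (edgeR's quasi-likelihood test, Benjamini-Hochberg adjustment). Over all 13907 genes tested, 45.5% were higher in muscle and 45.5% in liver. The median log2 ratio of liver to muscle was -0.62 over the members (-0.26 in complex II, -0.62 in complex III and -0.69 in complex V) and 0.003 over all genes tested. This fit, whose p-values are quoted below, treats the libraries of a mouse as independent. With the mouse as a block, 25 members were higher in muscle and 1 in liver, where 6345 and 6329 of all 13907 genes were. The adjusted p of Cycs was then 2.433e-13 (edgeR). In bulk tissue, fewer cells of a type and less RNA per cell cannot be told apart.

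Values of single libraries separated the tissues for most members. Every WT muscle lay above every WT liver for 21 of the 29 members, no member had every WT liver above every WT muscle, and each of these separations was found for 35.5% of all genes tested. The 8 members whose tissues overlapped were Sdhb, Sdhc, Sdhd, Uqcrq, Atp5d, Atp5g3, Atp5h and Atpif1. Cycs had 23.4, 26.98 and 31.4 RPKM (lowest, median, highest) in WT livers and 59.5, 75.6 and 84.3 RPKM in WT muscles. Its log2 ratio of liver to muscle was -1.44 ± 0.055 (SE, edgeR adjusted p = 1.451e-18). Atp5o had 186, 206 and 209 RPKM in WT livers and 429, 498 and 543 RPKM in WT muscles. Its log2 ratio was -1.28 ± 0.038 (SE, edgeR adjusted p = 6.228e-21). In both genes the lowest muscle lay above the highest liver.

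Complex II differed least between tissues. Sdha had a log2 ratio of -0.39 ± 0.043 and Sdhc, a membrane anchor, of -0.13 ± 0.042. Sdhb had 148, 160 and 173 RPKM in WT livers and 163, 209 and 307 RPKM in WT muscles, which overlapped at the edge, with a log2 ratio of -0.48 ± 0.075 (SE, edgeR adjusted p = 2.161e-06). Sdhd had 154, 170 and 180 RPKM in WT livers and 110, 136 and 161 RPKM in WT muscles, with a log2 ratio of 0.28 ± 0.050 (SE, edgeR adjusted p = 8.641e-06). With the trend of each library on gene length removed, Sdhd turned to -0.21 ± 0.046 (SE, edgeR adjusted p = 0.0001225), so its direction depends on the scaling. All 4 complex II genes were then higher in muscle, where 50.3% of all genes tested were.

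In complex III, 8 of 9 members were higher in muscle, where 45.5% of all genes tested were. The largest difference was that of Uqcrc1, a core subunit, with a log2 ratio of -1.08 ± 0.058, followed by Uqcr10 at -0.93 ± 0.050 and Uqcrb at -0.80 ± 0.036, both small subunits. Uqcrc2, the other core subunit, had 207, 233 and 257 RPKM in WT livers and 278, 330 and 396 RPKM in WT muscles, without overlap. Its log2 ratio was -0.49 ± 0.048 (SE, edgeR adjusted p = 5.274e-10). Uqcrfs1 at -0.65, Cyc1, cytochrome c1, at -0.62, Uqcrh, the hinge protein, at -0.47 and Uqcr11 at -0.46 lay between. Uqcrq had a log2 ratio of -0.047 ± 0.103 and did not pass the test. Its coefficient of variation was the highest of the members in muscle and second to that of Atpif1 in liver.

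In complex V, 13 of 14 tested members were higher in muscle, where 45.5% of all genes tested were. Atp5a1 had 534, 582 and 619 RPKM in WT livers and 791, 962 and 1087 RPKM in WT muscles, with a log2 ratio of -0.71 ± 0.052 (SE, edgeR adjusted p = 1.466e-12). Atp5b stood at -0.80, Atp5c1, the central stalk gamma subunit, at -1.001 and Atp5e, the epsilon subunit, at -0.99, whereas Atp5d, the delta subunit of the same stalk, differed by only -0.21 ± 0.059. The stalk and membrane subunits Atp5j at -0.68, Atp5f1 at -0.63, Atp5k at -0.62 and Atp5j2 at -0.62 were close to the median of the members, and Atp5h was at -0.28.

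The c-ring genes differed from each other in their tissue pattern. Atp5g1 had 112, 116 and 123 RPKM in WT livers and 255, 321 and 367 RPKM in WT muscles, with a log2 ratio of -1.43 ± 0.048 (SE, edgeR adjusted p = 1.145e-19). Atp5g2 had 28.1, 34.7 and 36.98 RPKM in WT livers and 51.4, 55.7 and 69.9 RPKM in WT muscles, with a log2 ratio of -0.77 ± 0.057 (SE, edgeR adjusted p = 2.189e-12). Atp5g3 had 423, 444 and 477 RPKM in WT livers and 342, 425 and 528 RPKM in WT muscles, and its log2 ratio of 0.057 ± 0.051 did not pass the test (edgeR adjusted p = 0.2916). Of the summed RPKM of the 3 genes, Atp5g1 made up 19.6% ± 0.534 in WT livers (range 18.9% to 20.6%) and 39.3% ± 0.726 in WT muscles (range 37.9% to 40.2%), with no overlap. Atp5g3 made up 74.8% ± 0.882 and 53.5% ± 0.962. The shares in KO livers and in muscles labelled KO were close to those, with Atp5g1 at 20.9% ± 1.18 and 38.9% ± 1.11, and at 20.7% ± 1.24 in the 7 KO livers without the 4.

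**Figure D2:**
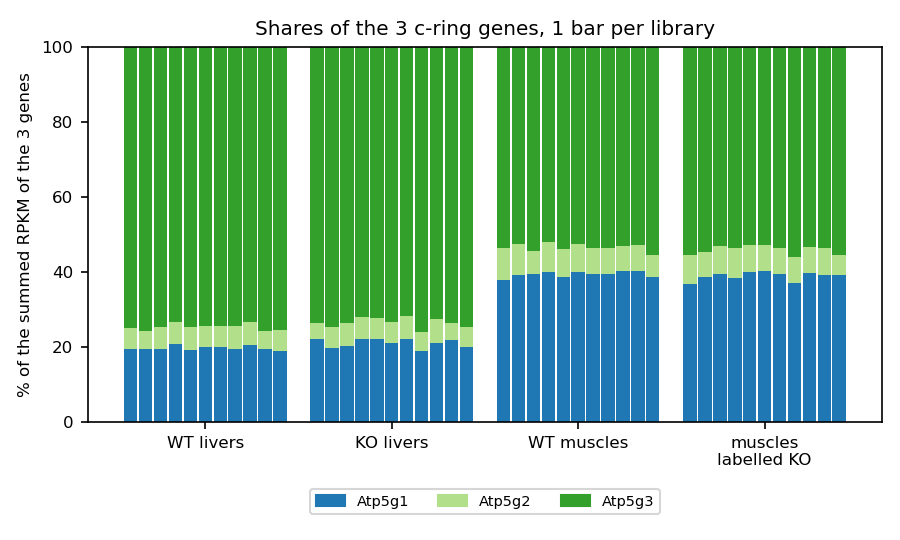
Share of Atp5g1, Atp5g2 and Atp5g3 in their summed RPKM (in %), with 1 bar for each of the 11 libraries in each of 4 groups. Atp5g1 makes up 18.8% to 22.1% of each liver bar and 36.8% to 40.3% of each muscle bar.

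The same comparison in the mice labelled KO gave fewer differences. Of the 29 members, 16 were higher in muscle, where 42.8% of all genes tested were, and 3 in liver (Sdhd, Uqcrq and Atp5g3), where 43.9% of all genes were, and the median log2 ratio was -0.39. The 3 members with the smallest p were Cycs at -1.37 ± 0.096 (edgeR adjusted p = 1.429e-12), Atp5a1 at -0.62 ± 0.069 (edgeR adjusted p = 9.339e-09) and Uqcrc2 at -0.45 ± 0.053 (edgeR adjusted p = 2.504e-08). They stood at -1.55, -0.69 and -0.47 without the 4 livers. Without the 4 livers with a slope below 0, 24 were higher in muscle and 1 in liver, where 45.0% and 43.7% of all genes were, and the median was -0.60, close to the value of WT mice. With all 11 KO livers, every muscle lay above every liver for 9 members, where 31.3% of all genes did so, and the reverse held for 0 members and 29.5% of all genes. Leaving out the 4 livers gave counts of 22 and 0, where 36% and 33.9% of all genes separated. With the mouse as a block and all livers, 17 members were higher in muscle and 2 in liver, where 6068 and 6039 of all 13981 genes were. WT and KO-labelled mice share no library, so these are separate measurements of the tissue difference. When each library's trend on gene length was removed, 29 of 29 members were higher in muscle in WT mice, where 50.3% of all genes were and 41.4% were higher in liver. In mice labelled KO it was 28 of 29, where 47.4% of all genes were and 41% were higher in liver. Under that scaling the medians were -0.96 and -0.93 while the medians of all genes were -0.18 and -0.13. Atp5g3 turned to -0.25 and -0.22 and Sdhd to -0.21 and -0.20.

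**Figure D3:**
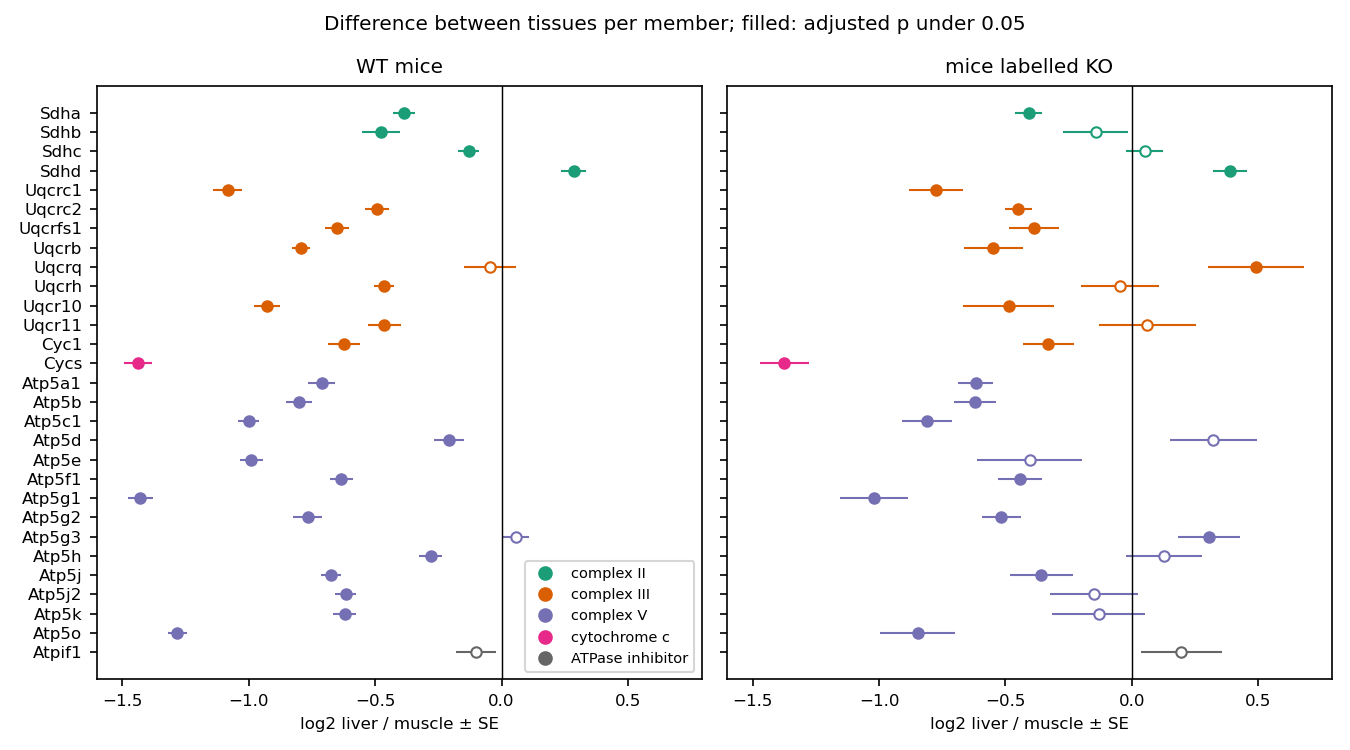
Log2 ratio of liver to muscle ± SE (x axis) for 29 members (y axis) in 11 WT mice (left) and 11 mice labelled KO (right), coloured by complex, filled where the adjusted p was under 0.05. On the left 25 filled points lie left of 0 and Sdhd right of it, and on the right points lie closer to 0 with longer bars.

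Other genes of the pathway showed the same direction in WT mice. Of 17 tested assembly factors and minor subunits, 14 were higher in muscle and 3 in liver, with a median log2 ratio of -0.79. Of all genes tested, 45.5% were higher in muscle and 45.5% in liver. Uqcc2 at -2.32 and Uqcc1 at -1.34, both assembly factors of complex III, had the smallest p, and Sdhaf4 at 0.35, an assembly factor of complex II, and Bcs1l at 0.20, which inserts the Rieske protein, were higher in liver. With gene length removed these calls were lost, with Sdhaf4 at 0.034 and Bcs1l at -0.35. Of 13 TCA cycle enzymes outside complex II, 10 were higher in muscle and 1 in liver, beside the same shares of all genes, with a median of -1.48. Idh3a, a subunit of isocitrate dehydrogenase, stood at -4.00 and Cs, citrate synthase, at -2.34, while Suclg2, the GTP-forming subunit of succinate-CoA ligase, was higher in liver at 2.67. The partner of complex III encoded in mitochondrial DNA, mt-Cytb, had a log2 ratio of -0.68 ± 0.099 (SE, edgeR adjusted p = 6.001e-07), near the -0.62 of the nuclear complex III members. The partners of complex V, mt-Atp6 and mt-Atp8, were listed at 0 in all 44 libraries. Of the windows of mt-Atp6, 99.5% were shared with the nuclear pseudogene Gm10925, whereas 0% of those of mt-Atp8 were shared, so no level is given for either.

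The question of whether loss of Slc16a13 changes these genes was asked in liver. Across all 11 KO livers, 28 of 29 members had a log2 ratio above 0, where 48.9% of all genes did, with a median log2 ratio of 0.20, but no member passed the threshold. The direction came with the 4 livers that stand apart, since without them 25 of 29 members had a ratio below 0, where 49.7% of all genes did, and the median was -0.031. The count of members past an adjusted p of 0.05 was 0 with and without these livers (edgeR), and over all genes 0.0231% and 0.0227% passed. At an unadjusted p under 0.05, 10 members were higher and 0 lower, where 9.78% of all 13005 genes tested were higher and 3.10% lower. Without the 4 livers 0 were higher and 4 lower, where 1.36% and 1.60% of all genes were. The median over all genes tested was -0.005 with and 0.001 without them.

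By complex, the median log2 ratio of KO to WT livers was 0.083 in complex II, 0.20 in complex III and 0.29 in complex V. Without the 4 livers these were -0.025, -0.021 and -0.029. The 8 complex V members with an unadjusted p under 0.05 were Atp5o, Atp5h, Atp5j2, Atp5k, Atp5e, Atp5g1, Atp5j and Atp5d, and the 2 of complex III were Uqcrh and Uqcrb. The catalytic genes Atp5a1 and Atp5b were not among them, at 0.032 ± 0.049 and 0.12 ± 0.067. The count of 10 fell to 6 when the liver of mouse 532 alone was left out, and the share over all genes was not counted for that run.

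Single members illustrate where the difference sat. Atp5o had 122, 134 and 138 CPM (lowest, median, highest) in WT livers and 128, 142 and 305 CPM in KO livers, with a log2 ratio of 0.39 ± 0.142 (SE, edgeR adjusted p = 0.3816), and 0.027 ± 0.035 without the 4 livers. Of the 11 KO livers 6 lay above every WT liver, and these included all 4 that stand apart. Atp5h, a peripheral stalk subunit, had 127, 141 and 149 CPM in WT and 132, 147 and 318 CPM in KO livers, with a log2 ratio of 0.38 ± 0.143 (SE, edgeR adjusted p = 0.3816), and 0.017 ± 0.037 without the 4 livers. Uqcrh had 123, 128 and 142 CPM in WT and 121, 136 and 306 CPM in KO livers, with 0.39 ± 0.149 (SE, edgeR adjusted p = 0.3816) and 0.004 ± 0.036. For these 3 members the medians of the groups were close while the highest KO liver was more than double the highest WT liver.

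Of the members whose products were blotted, Sdhb moved with the 4 livers like most members, while Uqcrc2 and Atp5a1 had ratios near 0. Sdhb had 164, 177 and 191 CPM in WT livers and 160, 172 and 319 CPM in KO livers, with a log2 ratio of 0.22 ± 0.116 (SE, edgeR adjusted p = 0.3841) and -0.064 ± 0.037 without the 4 livers. Uqcrc2 had 245, 266 and 287 CPM in WT and 248, 266 and 297 CPM in KO livers, with 0.005 ± 0.043 (edgeR adjusted p = 0.9545) and -0.019 ± 0.040. Atp5a1 had 1080, 1133 and 1181 CPM in WT and 1049, 1105 and 1374 CPM in KO livers, with 0.032 ± 0.049 (edgeR adjusted p = 0.7039) and -0.045 ± 0.034. Uqcrc2 thus had the same median CPM in both groups.

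The c-ring genes followed the same pattern. Atp5g1 had 66.1, 70.0 and 74.1 CPM in WT and 64.7, 73.5 and 142 CPM in KO livers, with a log2 ratio of 0.30 ± 0.122 (SE, edgeR adjusted p = 0.3816) and 0.016 ± 0.038 without the 4 livers. Atp5g3 had 301, 308 and 327 CPM in WT and 277, 304 and 562 CPM in KO livers, with 0.17 ± 0.111 (edgeR adjusted p = 0.4116) and -0.083 ± 0.037. Atp5g2 had 12.1, 15.0 and 15.9 CPM in WT and 13.4, 14.6 and 20.8 CPM in KO livers, with 0.11 ± 0.079 (edgeR adjusted p = 0.4507) and -0.031 ± 0.056. In each case the KO livers overlapped the WT livers.

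Counted over libraries, the 4 livers gave 98 of their 116 member values above every WT liver. The other 7 KO livers gave 7 of 203 values above every WT liver and 31 below. These counts were not made over all genes tested, and members counted in the same library are not independent, so they are a description only. The median log2 difference of the 29 members from the WT mean was 0.81 in the liver of mouse 532, 0.83 in that of 602, 0.46 in that of 583 and 0.13 in that of 611. In the other 7 KO livers it ran from -0.059 to -0.007. The order of these medians followed the slopes on gene length except for 532 and 602, which were close. In the muscles of the same 4 mice the median ran from -0.16 to 0.14, inside the range of WT muscles.

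**Figure D4:**
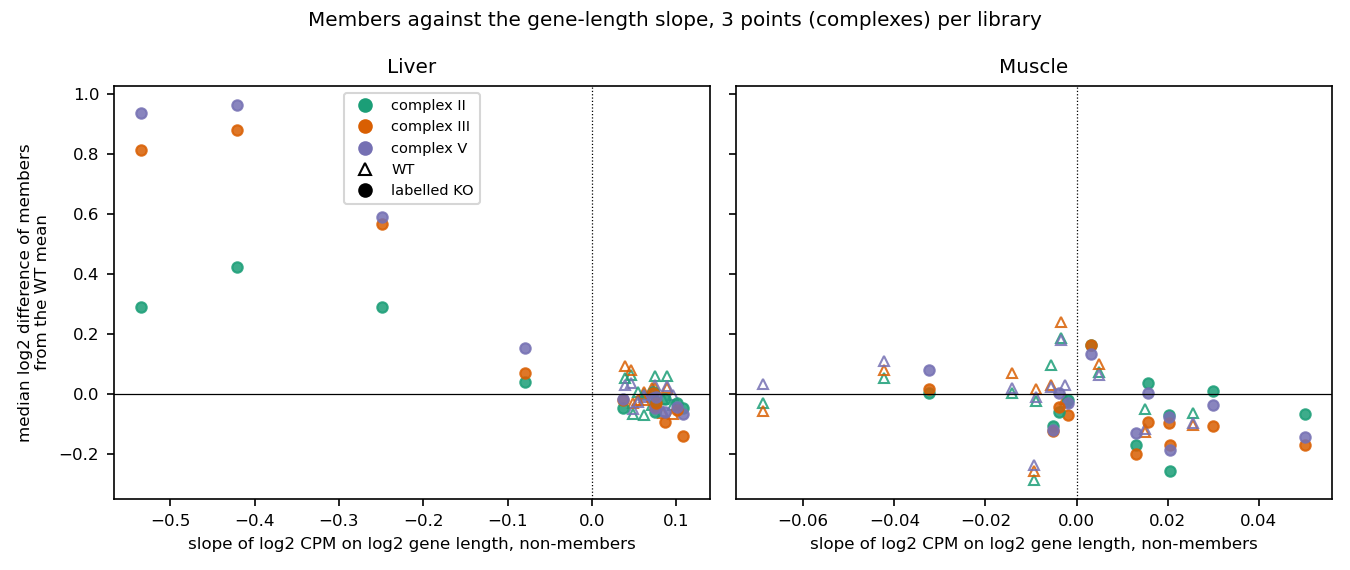
Median log2 difference of the complex II, III and V members from the WT mean (y axis, 3 points per library) against the slope of log2 CPM over log2 length of other genes in that library (x axis), for liver (left) and muscle (right), with WT as triangles and libraries labelled KO as filled circles. In liver, 3 KO libraries with slopes from -0.53 to -0.25 lie at the top left and the rest gather near 0, and the x axis of muscle spans a much smaller range.

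The difference ran with gene length. The median length was 716 bases over the members and 2412 bases over all genes tested. The 12 members of 600 bases or less had a median log2 ratio of 0.33, and the 327 other tested genes in that class had 0.33 as well. The 11 members over 600 and up to 1200 bases had 0.17 and the 1683 other genes 0.22, and the 6 members over 1200 bases had 0.099 and the 10965 other genes -0.038. Without the 4 livers the 3 medians of the members were -0.029, -0.023 and -0.032. Over the 29 members, Pearson's r of log2 ratio with log2 length was -0.72 and Spearman's rho -0.66, given as a description of genes that were counted in the same libraries, and without the 4 livers r was 0.27.

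The span is shown by the longest member and by Atp5e, a short one with the highest ratio of the 4 livers' mean to the WT mean among tested members, 2.248. Other short members had lower ratios, such as 2.065 for Atp5k of 372 bases and 1.261 for Atp5g2 of 441 bases. Atp5e, of 423 bases, was at 1.68, 1.47, 0.86 and 0.28 on the log2 scale relative to the WT mean in the livers of mice 532, 602, 583 and 611. Sdha, of 2358 bases and the longest member, was at -0.32, -0.035, -0.016 and -0.017 in the same livers. Its log2 ratio over all KO livers was -0.046 ± 0.044, the only one below 0. When each library's trend on gene length was removed instead, 18 members were above 0, where 57.7% of all genes were, and 11 below, with a median of 0.016 (0.026 over all genes). Then 4 were higher at an unadjusted p under 0.05, where 7.27% of all genes were. None passed the adjusted threshold, where 0.0154% of genes did.

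**Figure D5:**
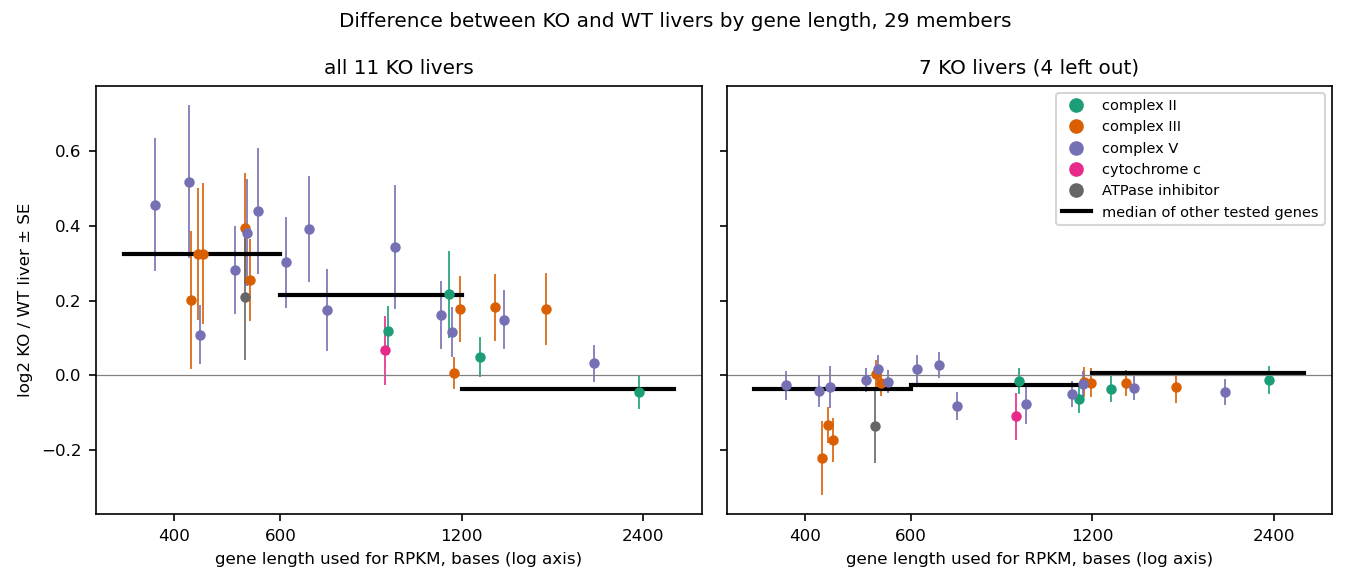
Log2 ratio of KO to WT livers ± SE (y axis) against gene length in bases (log axis) for 29 members coloured by complex, with all 11 KO livers (left) and without the 4 livers whose slope was below 0 (right), and with the median of other tested genes in 3 length classes as black lines. On the left, short members lie near 0.33 with the other short genes, and on the right the members lie between -0.22 and 0.027.

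Other values also moved with the 4 livers, and their part in the result was not tested. The marker sums here are CPM scaled over the 22 livers alone. Their total counts, 27458545 to 31084170, were above those of the other 7 KO livers, 20517872 to 25567448, but inside the WT range of 20150712 to 33733103. The 5 macrophage markers summed to 359 to 653 CPM in the 4 livers, to 226 to 365 CPM in the other KO livers and to 261 to 335 CPM in WT livers, and 3 of the 5 had a mean above every WT liver. The 4 endothelial markers summed to 114 to 163 CPM in the 4 livers and to 166 to 201 CPM in WT livers, and 4 of 4 had a mean below every WT liver. None of these markers was at 0 in all livers of a set. Hepatocyte markers summed to 105800 to 132400 CPM in the 4 livers and to 81330 to 115400 CPM in WT livers, with 3 of 7 above and 2 of 7 below every WT liver. The marker sums were not corrected for gene length. Over all KO livers, 4 of 4 endothelial markers had a log2 ratio of KO to WT below 0 (median -0.08). With each library's trend on gene length removed, 4 of 4 were above 0 (median 0.032). The 5 macrophage markers were above 0 in both fits (medians 0.257 and 0.216), and the hepatocyte medians were 0.199 and 0.143. No marker of these lists passed the adjusted threshold in either fit.

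In the 7 KO livers that did not stand apart, 4 members had an unadjusted p under 0.05, all lower than WT. They were Uqcr11, Uqcr10, Uqcrq and Atp5g3, of which Uqcr11 had a log2 ratio of -0.17 ± 0.059, Uqcr10 of -0.13 ± 0.049, Uqcrq of -0.22 ± 0.098 and Atp5g3 of -0.083 ± 0.037. The adjusted p was 0.9992 for each of them (edgeR), so none passed. The 3 that belong to complex III are all small subunits of it. In the same comparison the 5 tested markers of skeletal muscle fibres were all lower at an unadjusted p under 0.05, with a median log2 ratio of -2.29, and the 6 markers summed to 0.602 to 4.07 CPM in these 7 livers and to 2.29 to 54.4 CPM in WT livers. Their part in the values of the members was not tested.

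The pathway lists around the members did not pass the threshold in liver either. Of the 17 assembly factors and minor subunits 13 had a ratio above 0, beside 48.9% of all genes, with a median of 0.091. At an unadjusted p under 0.05, 2 were higher with the 4 livers, beside 9.78% of all genes, and 0 without them. The 2 were Uqcc3 at 0.39 and 2010107E04Rik, a small ATP synthase subunit, at 0.36. Hccs, which attaches haem to cytochrome c, stood at -0.14 and Atpaf1, an assembly factor of ATP synthase, at -0.088. The 13 TCA enzymes had a median of -0.034 with 6 above 0, Suclg1 at 0.17 and Cs at -0.11 among them. Without the 4 livers the medians were -0.028 and -0.035. The log2 ratio of mt-Cytb was -0.11 ± 0.083 with and -0.037 without them.

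In muscle the comparison of libraries labelled KO with WT gave small ratios. Of 29 members 27 lay below 0, where 46.3% of all genes did, with a median log2 ratio of -0.049 (-0.044 in complex II, -0.097 in complex III and -0.038 in complex V) against 0.008 over all genes. No member passed an adjusted p of 0.05 (edgeR), and 0.00754% of the 13266 genes tested did. At an unadjusted p under 0.05, 0 members were higher and 4 lower, where 3.76% of all genes were higher and 4.88% lower. The 4 were Uqcrq, Atp5d, Uqcr11 and Atp5g2. The count became 8 when either WT mouse 528 or mouse 611, labelled KO, was left out, and shares over all genes were not counted for those runs.

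Uqcrq, which had the smallest p in muscle, had 108, 140 and 195 CPM in WT libraries and 90.3, 112 and 164 CPM in those labelled KO. Its log2 ratio was -0.32 ± 0.109 (SE, edgeR adjusted p = 0.4946), and the groups overlapped, with 4 libraries labelled KO below every WT library. Atp5d had 175, 216 and 250 CPM in WT and 167, 186 and 221 CPM in libraries labelled KO, with -0.17 ± 0.064 (SE, edgeR adjusted p = 0.509). Uqcr11 had 104, 132 and 152 CPM and 95.9, 115 and 137 CPM, with -0.18 ± 0.071 (SE, edgeR adjusted p = 0.509). All 3 overlapped between the groups.

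Of the blotted members and c-ring genes in muscle, Atp5g2 alone had an unadjusted p under 0.05, with 4 libraries labelled KO below every WT library. Sdhb had 190, 246 and 355 CPM in WT and 209, 230 and 324 CPM in libraries labelled KO, with -0.10 ± 0.088 (edgeR adjusted p = 0.7615). Uqcrc2 was at -0.026 ± 0.048 (edgeR adjusted p = 0.8984) and Atp5a1 at -0.049 ± 0.049 (edgeR adjusted p = 0.7907). Atp5g1 was at -0.091 ± 0.062, Atp5g2 at -0.13 ± 0.051 and Atp5g3 at -0.059 ± 0.064 (edgeR adjusted p = 0.6926, 0.519 and 0.8055). Over all members, 13 of 29 had every library labelled KO inside the WT range, and 12 of 319 values lay above and 19 below that range. The same counts over all genes tested were not made, so these do not show whether the members differ from other genes. The muscle list medians were -0.012 over 17 assembly factors, where Sdhaf3 stood at 0.084, Atpaf1 at 0.050, Bcs1l at -0.064 and Uqcc2 at -0.057, and -0.041 over 13 TCA enzymes, where Mdh2 stood at -0.086, Idh3b at -0.072, Dld at 0.004 and Sucla2 at 0.002. The log2 ratio of mt-Cytb was 0.022 ± 0.082.

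Markers of other cells varied between muscles. All 5 markers of slow or oxidative fibres had a log2 ratio below 0 in libraries labelled KO, the direction of 27 of the 29 members, with a median of -1.63 and a range from -3.60 to -0.47. Of these 5, 4 were lower at an unadjusted p under 0.05 and none passed the adjusted threshold (lowest edgeR adjusted p = 0.4896). They summed to 30.9 to 1546 CPM in WT muscles and to 56.3 to 1219 CPM in those labelled KO, and the 5 adipocyte markers, all with a ratio above 0, to 91.4 to 375 CPM and to 128 to 818 CPM. None of these was at 0 throughout a group, and their part in the values of the members was not tested.

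Whether the difference between KO and WT depends on the tissue was asked by the interaction of genotype and tissue over all 44 libraries. The log2 ratio of KO to WT was larger in liver than in muscle for 28 of 29 members, where it was for 46.2% of all genes, with a median difference of 0.29 against -0.027 over the 14739 genes tested. No member passed an adjusted p of 0.05 (edgeR), and 0.00678% of genes did. At an unadjusted p under 0.05, 18 members were higher in this sense, where 10% of genes were, and 9 with the mouse as a block, where 7.12% of genes were. With gene length removed it was 7, where 8.83% of genes were. Without the 4 livers the count was 0, where 1.63% of genes were, and the median was 0.005.

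The members with the smallest p in the interaction were Atp5g1 at 0.40 ± 0.142, Atp5d at 0.53 ± 0.185 and Atp5o at 0.43 ± 0.155 on the log2 scale (edgeR adjusted p = 0.2771 for each). They stood at 0.106 ± 0.079, 0.092 ± 0.088 and 0.052 ± 0.059 without the 4 livers. Sdhb was at 0.33 ± 0.153 (edgeR adjusted p = 0.2918), Uqcrc2 at 0.039 ± 0.069 (edgeR adjusted p = 0.7806) and Atp5a1 at 0.091 ± 0.078 (edgeR adjusted p = 0.5315), and without the 4 livers at 0.036, 0.005 and 0.002. Atp5g2 and Atp5g3 were both at 0.24 (edgeR adjusted p = 0.2771 and 0.3426), and without the 4 livers at 0.094 and -0.025. Of the 17 assembly factors 3 and of the 13 TCA enzymes 2 were higher at an unadjusted p under 0.05, beside the 10% of all genes. Both counts were 0 without the 4 livers, and with the mouse as a block they were 1 and 0. The lists were led by Uqcc3 at 0.44, Bcs1l at 0.19, Idh3b at 0.20 and Suclg1 at 0.22, while Atpaf1 at -0.13, Hccs at -0.12, Suclg2 at -0.070 and Cs at -0.059 lay on the other side. The value of mt-Cytb was -0.12 ± 0.137 with and -0.060 ± 0.124 without the 4 livers.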

How the data were processed

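RNA-seq of 44 libraries was used, in 4 groups of 11 given by the labels. The authors deposited raw counts per gene and RPKM values per gene. Libraries were poly(A) selected and read as 85-base single ends, in sequencing pools of 11 libraries whose members were not given. The aligner, counting program, genome build and annotation were not given in the sources used here, and gene length is the median implied by both deposited tables. Counts were fitted in R 4.3.3 with edgeR 4.0.16 (TMM, filterByExpr, quasi-likelihood F-test, Benjamini-Hochberg over all genes tested, threshold 0.05). Within a tissue the p-values measure the spread between mice. The main fits over both tissues treat the libraries of a mouse as independent, so their p-values measure the spread between libraries. Alternatives were RLE and total-count scaling, other filters, DESeq2 1.42.0, limma 3.58.1 (voom, or log2 of RPKM + 0.1), a loess on gene length (span 0.3), the mouse as block, and libraries left out. Animal numbers pair liver and muscle of the same mouse (mean correlation of deviations 0.062 in WT and 0.079 in KO, against -0.006 and -0.007 for other mice). A count of 3 was the floor, and 0 library pairs were identical. The procedure was also run on simulated counts with a fixed spread between libraries. These had no trend on gene length, no libraries that stand apart and no shared mouse effect, so the run does not test those features. All 30 members were named. Full statistics were given for Sdhb, Uqcrc2, Atp5a1, Atp5g1, Atp5g2, Atp5g3 and the 3 members with the smallest p per comparison, and of other lists for mt-Cytb and the 2 genes with the smallest p in each direction. Members and lists were chosen with earlier results of these data known.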

Additional observations from a re-analysis of the deposited data

How the results depend on the processing

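No member passed an adjusted p under 0.05 in liver, muscle or the interaction under any alternative run. In liver, the count of members higher at an unadjusted p (10) became 5 with limma-voom, 4 with gene length removed, 0 without the 4 livers with a slope below 0 and 1 with the RPKM table, and the count lower (0) became 4 and 1 under the last pair. Of all genes, 9.78% were higher in the main fit, 7.27% with gene length removed and 1.36% without the 4 livers. No such share was counted for limma-voom, the RPKM table or runs without 1 library. Their counts therefore do not show whether members moved more than other genes. Direction turned with total-count scaling for Uqcrc2 (-0.058) and Atp5a1 (-0.033), with gene length removed for Uqcrc2 (-0.094), Atp5g2 (-0.11) and Atp5g3 (-0.041), with the RPKM table for Uqcrc2 (-0.013), and without the 4 livers for Sdhb (-0.064), Uqcrc2 (-0.019), Atp5a1 (-0.045), Atp5g2 (-0.031) and Atp5g3 (-0.083). Leaving out 1 library moved the liver count between 6 and 14 (6 without KO mouse 532), the muscle count lower between 3 and 8 (8 without WT mouse 528 or KO mouse 611), the ratio of Uqcrc2 between -0.005 and 0.026 in liver (below 0 without WT mouse 536, 537 or 616 or KO mouse 597) and between -0.051 and 0.002 in muscle (above 0 without WT mouse 624).

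Between tissues, gene length removed gave 0 members higher in liver in both genotypes, 28 higher in muscle in mice labelled KO, medians of -0.96 (WT) and -0.93 (KO), and turned Atp5g3 to -0.25 (WT) and -0.22 (KO) and Sdhd to -0.21 and -0.20. In mice labelled KO, 1 member was higher in liver with total-count scaling and 1 without the 4 livers. In the interaction, the count higher (18) became 10 with total-count scaling, 7 with gene length removed, 9 with the mouse as replicate block and 0 without the 4 livers, where the median was 0.005. No share over all genes was counted under total-count scaling, here or between tissues. Uqcrc2 turned to -0.050 with total-count scaling and -0.045 with gene length removed, Atp5a1 to -0.003 with total-count scaling and Atp5g3 to -0.025 without the 4 livers. The replicate block also took the assembly factors higher in the interaction from 3 to 1 and the TCA enzymes from 2 to 0, and changed no other count of members by over 1.5 times. Total-count scaling moved the median of all genes to -0.11 in the interaction and -0.10 between tissues in mice labelled KO. Beyond what leaving out libraries or genes shows by its construction, the cause of these changes was not tested. Atp5l, at up to 17 reads per library, gave no test.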
